A study of Mus musculus with 12 samples.

Results

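The genes described here are 10 genes of myeloid and macrophage identity, measured in lungs of mouse embryos. They were taken, with earlier results of these data known, as a list of symbols that mark this cell type. Matched by Ensembl ID, all 10 were found among the 31078 genes of the count table. They are Spi1, which encodes a transcription factor, the signalling adaptors Tyrobp and Fcer1g, the complement chains C1qa, C1qb and C1qc, the lysosomal gene Laptm5, the mannose receptor Mrc1, the oxidase subunit Cybb and the leukocyte phosphatase Ptprc. RNA was sequenced from whole lungs of C57BL/6 background embryos at embryonic day 12.5, with left and right lungs kept apart. The 4 groups were Intu knockout left, Intu knockout right, wild-type left and wild-type right lungs, with 3 libraries each, and the embryos of both genotypes came from parents that carry an Intu knockout allele. Intu acts in building primary cilia, and the study asked what its loss changes in the lung and whether the left and right sides differ. Whether the libraries of a group stem from different embryos is not stated in the labels. The p-values therefore speak for the spread among these libraries alone, and part of it may be technical.

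Macrophages reach fetal organs early, at first from the yolk sac and later from the fetal liver. The factor PU.1, encoded by Spi1, is needed for their formation. Once in a tissue, macrophages engulf dying cells and debris, which uses surface receptors coupled to adaptor proteins such as those of Tyrobp and Fcer1g, scavenger receptors such as that of Mrc1, and the opsonin C1q. In the developing lung they are found in the mesenchyme around the branching airways.

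Library totals in the part of the genome analysed (chromosomes 1 to 7, 10 and X and part of 8) were 10290103 to 10753386 counts, and levels are given as normalised counts-per-million (CPM) of that part. Intu itself overlapped between the labels, at 26.2 to 31.4 CPM in the 6 knockout libraries and 28.2 to 34.0 CPM in the 6 wild-type libraries. In left lungs alone its libraries did not overlap, at 26.2 to 27.5 CPM in knockout and 30.5 to 32.5 CPM in wild type (log2 difference -0.21, SE 0.09, adjusted p = 0.380), and in right lungs they did (adjusted p = 0.673). The removed part of the gene is not named in the labels, so genotypes are given as labelled. Gli1, a Hedgehog target, did separate them, at 150.6 to 185.5 CPM in knockout and 344.6 to 394.4 CPM in wild type. Xist, the RNA that coats the inactive X chromosome, also did not overlap between the genotypes, at 107 to 985 CPM in knockout and 1271 to 2269 CPM in wild type. The labels give no sex, and differences that go with Xist and those that go with genotype cannot be told apart. The library of knockout left lung 1 held 40.3 CPM of Alb and 45.7 CPM of Afp, which fetal liver makes, against at most 2.70 and 8.40 CPM in any other library. Alb and Afp were picked after their values were seen. The same library was the highest of the 6 knockout libraries for 7 of the 10 macrophage genes. Its part in the results was not tested. Counts of non-overlapping genes and of genes called in left lungs, between sides and in the interaction are also given without it. The summed comparison of the 10 genes is also given without knockout number 1. Other counts below include this library, such as those of the gene lists and of the fits that treat libraries as separate or as paired blocks.

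All 10 genes lie on chromosomes that were analysed, and none shares exon bases with another gene of the table. In GRCm38, Spi1 (ENSMUSG00000002111) lies on chromosome 2 from 91082390 to 91115756 on the plus strand, and Mrc1 (ENSMUSG00000026712) on the same chromosome from 14229392 to 14332057, also on the plus strand. Tyrobp (ENSMUSG00000030579) lies on chromosome 7 from 30413760 to 30417585, plus strand. Fcer1g (ENSMUSG00000058715) and Ptprc (ENSMUSG00000026395) lie on the minus strand of chromosome 1, from 171229572 to 171234365 and from 138062861 to 138175708. The 3 C1q genes sit next to each other on the minus strand of chromosome 4. C1qb (ENSMUSG00000036905) runs from 136880129 to 136886187, C1qc (ENSMUSG00000036896) from 136889804 to 136893065 and C1qa (ENSMUSG00000036887) from 136895917 to 136898803. Laptm5 (ENSMUSG00000028581) is on the same chromosome on the plus strand, from 130913125 to 130936141. Cybb (ENSMUSG00000015340) is the X-linked member, on the minus strand from 9435252 to 9487771.

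RefSeq promoters (GRCm38.p6, the 250 bases before a RefSeq start) were matched by symbol for 7 of the 10 genes. Spi1, Tyrobp and C1qa had no entry, and Ptprc had a pair of entries. The RefSeq starts are not those of the gene bounds given above. Only the C1qb window lies wholly outside its gene's bounds, and those of Cybb (X:9469325-9469574) and Ptprc lie wholly within them. The core of the sequence that PU.1 binds, GAGGAA or TTCCTC on the other strand, was searched in these windows because Spi1 is a member. It was present for 5 of the 7 (C1qb, C1qc, Laptm5, Mrc1 and 1 entry of Ptprc), which is 5 of their 8 promoters, against 7639 of all 32851 promoters of that length (23.3%). A second motif, TGCTGA or TCAGCA on the other strand, part of the element bound by Maf factors, was present for 2 of the 7 (C1qb and Laptm5), in 2 of the 8 promoters, against 16.1% of all promoters. A match describes these letters only, can lie inside the gene and shows no binding. The promoters of the genes that edgeR called lower below and that have an entry (Laptm5, Mrc1, C1qb and Fcer1g), and that of C1qc, whose chain joins that of C1qb in the C1q protein, are shown 5′ to 3′ on the gene's strand with GAGGAA or TTCCTC in capitals. They are chr4:130913066-130913315 (plus strand) for Laptm5, chr2:14229164-14229413 (plus) for Mrc1, chr4:136886201-136886450 (minus) for C1qb, chr1:171234350-171234599 (minus) for Fcer1g and chr4:136892915-136893164 (minus) for C1qc.
Laptm5: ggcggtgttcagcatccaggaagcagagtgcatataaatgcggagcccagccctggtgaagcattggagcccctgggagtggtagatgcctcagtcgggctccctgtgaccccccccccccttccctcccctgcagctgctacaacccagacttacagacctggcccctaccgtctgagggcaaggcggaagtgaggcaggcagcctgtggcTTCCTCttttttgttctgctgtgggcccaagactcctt
Mrc1: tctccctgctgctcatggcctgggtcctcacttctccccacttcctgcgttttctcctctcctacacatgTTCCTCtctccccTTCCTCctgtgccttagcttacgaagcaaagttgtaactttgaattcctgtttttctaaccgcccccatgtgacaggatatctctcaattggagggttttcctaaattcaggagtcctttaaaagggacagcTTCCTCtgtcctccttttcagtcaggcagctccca
C1qb: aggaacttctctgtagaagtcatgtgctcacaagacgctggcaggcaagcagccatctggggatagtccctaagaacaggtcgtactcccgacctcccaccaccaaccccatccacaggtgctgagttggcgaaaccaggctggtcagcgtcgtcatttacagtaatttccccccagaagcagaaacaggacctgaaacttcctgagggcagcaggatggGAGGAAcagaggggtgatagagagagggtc
Fcer1g: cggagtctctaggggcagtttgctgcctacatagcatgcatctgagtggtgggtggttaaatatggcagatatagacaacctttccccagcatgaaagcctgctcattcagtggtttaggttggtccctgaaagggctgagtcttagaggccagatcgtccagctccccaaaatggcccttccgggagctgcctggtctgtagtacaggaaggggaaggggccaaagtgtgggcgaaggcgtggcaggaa
C1qc: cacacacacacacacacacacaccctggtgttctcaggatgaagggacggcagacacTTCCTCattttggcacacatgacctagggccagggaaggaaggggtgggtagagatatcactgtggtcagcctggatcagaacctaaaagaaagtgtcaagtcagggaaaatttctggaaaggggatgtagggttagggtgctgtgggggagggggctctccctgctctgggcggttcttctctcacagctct
Mrc1 holds 3 matches, Laptm5, C1qb and C1qc hold 1 each, and Fcer1g holds none.

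The main comparison set Intu knockout against wild-type lungs, with the counts of the left and the right library of each number added up, which gave 3 summed libraries per genotype. Laptm5 and Mrc1 were called lower in knockout lungs, Laptm5 by 30.5% and Mrc1 by 26.2%, and the other 8 genes did not pass the test. All 10 log2 differences were negative, between -0.76 for Spi1 and -0.17 for C1qc, with a median of -0.53. Over all 10203 genes tested the median was 0.00, and 48.7% of the differences were negative. The 10 genes were chosen with earlier results of these data known, so their shared direction is a description and not independent evidence. The test was edgeR's quasi-likelihood test with Benjamini-Hochberg adjustment over all genes and a threshold of 0.05, and it called 1.04% of all genes lower. Without adjustment, 7 of the 10 genes had a p under 0.05, against 1350 of all genes. In whole lungs, fewer macrophages and less RNA of these genes per macrophage cannot be told apart.

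Treating the 12 libraries as separate samples called 6 of the 10 genes lower (Spi1, Tyrobp, Fcer1g, C1qb, Laptm5 and Mrc1), where 3.62% of all genes were called lower. Left and right libraries of the same number and genotype correlated at 0.253 to 0.486, and this fit counts them as independent. Its p-values can therefore be too small, here and wherever the fit of 12 separate libraries is given below, the gene lists included. A fit of the 12 libraries that treats each left and right pair as a random block called the same 6, where 2.48% of all genes were called lower. Leaving out number 1 of the knockout, which holds the library with Alb and Afp, left Laptm5 (log2 difference -0.58, adjusted p = 0.00852) and Mrc1 (-0.48, adjusted p = 0.0257) called and added C1qb (-0.69, adjusted p = 0.0228), with 1.17% of all genes called lower. Other single numbers decided the call. Laptm5 missed the threshold without knockout number 3 (adjusted p = 0.0647) or wild-type number 2 (0.0619). Mrc1 missed it without knockout number 3 (0.0811) or any of the 3 wild-type numbers (0.0667 to 0.104). Leaving out wild-type number 3 added C1qb (0.0408) and Fcer1g (0.0286).

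**Figure D1:**
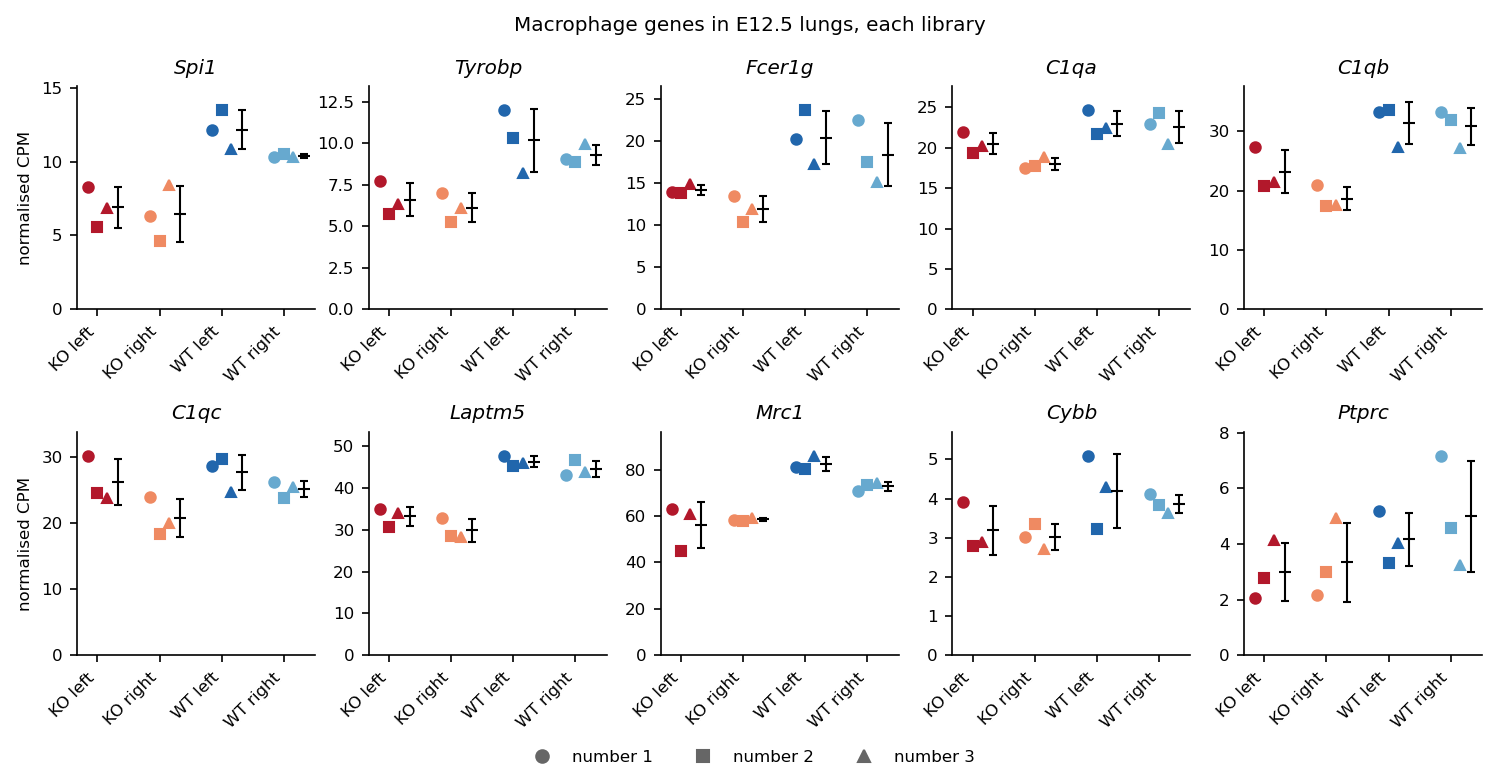
Normalised CPM of each of the 10 genes (y axes, each from 0) in every library of the 4 groups (x axes), with marker shapes for the library numbers and bars for the group mean ± SD (n = 3). The 6 knockout libraries lie below all 6 wild-type libraries for Spi1, Tyrobp, Fcer1g, Laptm5 and Mrc1. Ptprc overlaps between the genotypes on both sides, and Cybb overlaps in left lungs and not in right lungs.

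Spi1 encodes PU.1, the transcription factor that myeloid cells depend on. Its level was 8.31, 5.56 and 6.83 CPM in knockout left lungs, against 12.1, 13.5 and 10.9 CPM in wild-type left lungs. In right lungs it was 6.35, 4.61 and 8.39 CPM in knockout and 10.3, 10.5 and 10.3 CPM in wild type. The genotypes did not overlap on either side, and wild-type right lungs were closely grouped. Spi1 had the most negative log2 difference of the 10 genes in left lungs (-0.82, SE 0.19, adjusted p = 0.0651) and over both sides (-0.76, SE 0.16, adjusted p = 0.0705). In right lungs it was -0.69 (SE 0.20, adjusted p = 0.127). None of these passed the threshold of 0.05, and in the fit of 12 separate libraries Spi1 was called (-0.75, SE 0.14, adjusted p = 0.00550).

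Tyrobp and Fcer1g encode small membrane adaptors with tyrosine activation motifs. Tyrobp carries the signals of receptors such as Trem2, and Fcer1g those of Fc receptors. Tyrobp was at 7.73, 5.75 and 6.35 CPM in knockout left lungs, against 12.01, 10.3 and 8.23 CPM in wild-type left lungs. Right lungs held 7.03, 5.28 and 6.08 CPM of Tyrobp in knockout and 9.08, 8.86 and 9.95 CPM in wild type. Each knockout library was below each wild-type library, with a narrow gap between 7.73 CPM in the highest knockout library and 8.23 CPM in the lowest wild-type library. Fcer1g was at 13.9, 13.8 and 14.9 CPM in knockout left lungs, against 20.3, 23.7 and 17.3 CPM in wild-type left lungs. For right lungs the Fcer1g values were 13.5, 10.4 and 11.96 CPM in knockout and 22.6, 17.5 and 15.1 CPM in wild type. The Fcer1g groups did not overlap either, although its wild-type libraries were more spread than its knockout ones. Over both sides the log2 difference was -0.61 (SE 0.14, adjusted p = 0.0876) for Tyrobp and -0.57 (SE 0.12, adjusted p = 0.0711) for Fcer1g. Both missed the threshold and were called in the fit of 12 separate libraries, at adjusted p of 0.00937 for Tyrobp and 0.00807 for Fcer1g.

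C1qa, C1qb and C1qc encode the 3 chains that assemble in equal numbers into C1q, which tags dying cells and starts the classical complement pathway. C1qb showed the clearest genotype difference of the 3. It was at 27.4, 20.8 and 21.5 CPM in knockout left lungs, against 33.3, 33.6 and 27.4 CPM in wild-type left lungs. Right lungs held 20.9, 17.4 and 17.6 CPM of C1qb in knockout and 33.3, 32.0 and 27.3 CPM in wild type. Right lungs were widely separated, while on the left the highest knockout library, number 1, almost met the lowest wild-type one. C1qb was called lower in right lungs (log2 difference -0.73, SE 0.13, adjusted p = 0.0112) and not in left lungs (-0.44, SE 0.13, adjusted p = 0.147) or over both sides (-0.57, SE 0.12, adjusted p = 0.0610). The right-lung call was lost without knockout right 2, knockout right 3, wild-type right 1 or wild-type right 2, at adjusted p between 0.0502 and 0.0662.

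C1qa was at 22.0, 19.4 and 20.2 CPM in knockout left lungs, against 24.7, 21.7 and 22.4 CPM in wild-type left lungs. In right lungs C1qa was at 17.5, 17.8 and 18.8 CPM in knockout and 22.9, 24.4 and 20.5 CPM in wild type. The genotypes overlapped on the left and not on the right. C1qc was at 30.1, 24.5 and 23.8 CPM in knockout left lungs, against 28.5, 29.6 and 24.7 CPM in wild-type left lungs. The right lungs held 23.9, 18.3 and 20.0 CPM of C1qc in knockout and 26.2, 23.8 and 25.4 CPM in wild type. C1qc overlapped between the genotypes on both sides, and its highest library of all 12 was knockout left 1. Over both sides the log2 difference was -0.24 (SE 0.08, adjusted p = 0.236) for C1qa and -0.17 (SE 0.10, adjusted p = 0.539) for C1qc, and neither was called in the fit of 12 separate libraries (adjusted p = 0.0603 and 0.274). Without knockout number 1 the C1qc difference was -0.28 (SE 0.09, adjusted p = 0.184), and without knockout number 2 it was -0.11. In left lungs the C1qc difference ranged over -0.19 to -0.017 as single libraries were left out, with -0.19 without knockout left 1. The ratio of C1qb to C1qc counts was 0.848 to 0.948 in the 6 knockout libraries and 1.08 to 1.34 in the 6 wild-type libraries. Of the 45 pairs among the 10 genes, 2 had count ratios that did not overlap between genotypes (4.44%), against 4.68% of all gene pairs, so this share is no more than that of other genes.

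Laptm5 encodes a lysosomal membrane protein of blood-derived cells, and it was called lower in left lungs, in right lungs and over both sides. It was at 35.0, 30.7 and 34.0 CPM in knockout left lungs, against 47.6, 45.1 and 45.8 CPM in wild-type left lungs. Right lungs held 32.9, 28.4 and 28.2 CPM of Laptm5 in knockout and 43.0, 46.6 and 43.8 CPM in wild type. The highest knockout library, at 35.0 CPM, was well below the lowest wild-type library, at 43.0 CPM. Laptm5 fell by 0.48 on the log2 scale in left lungs (SE 0.08, adjusted p = 0.0110), by 0.58 in right lungs (SE 0.08, adjusted p = 0.00236) and by 0.53 over both sides (SE 0.07, adjusted p = 0.0113). The left call was lost without wild-type left 1 (adjusted p = 0.0559).

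Mrc1 encodes the mannose receptor, an endocytic receptor of tissue macrophages that some endothelial cells also carry. Mrc1 was at 63.1, 44.9 and 60.7 CPM in knockout left lungs, against 81.2, 80.1 and 85.9 CPM in wild-type left lungs. In right lungs it was at 58.4, 57.8 and 59.3 CPM in knockout and 70.7, 73.5 and 74.3 CPM in wild type. Knockout and wild type did not overlap, and knockout left 2 stood below all other libraries. Mrc1 fell by 0.55 on the log2 scale in left lungs (SE 0.10, adjusted p = 0.0123) and by 0.44 over both sides (SE 0.07, adjusted p = 0.0223). In right lungs the difference was -0.32 (SE 0.10, adjusted p = 0.154). Right lungs taken alone, without the left-lung groups in the fit, gave Mrc1 an adjusted p of 0.0460, and left lungs taken alone gave 0.0858.

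Cybb and Ptprc were the least abundant members, with 28 to 53 and 21 to 75 counts per library. Cybb encodes the membrane subunit of the phagocyte NADPH oxidase. It was at 3.91, 2.78 and 2.89 CPM in knockout left lungs, against 5.09, 3.21 and 4.30 CPM in wild-type left lungs, and at 3.03, 3.36 and 2.70 CPM in knockout right lungs, against 4.11, 3.83 and 3.64 CPM in wild-type right lungs. The Cybb groups overlapped on the left and not on the right, and their difference with both sides summed was -0.37 on the log2 scale (SE 0.17, adjusted p = 0.398). In left lungs it ranged over -0.56 to -0.24 as single libraries were left out. Ptprc encodes CD45, the phosphatase on the surface of white blood cells. It was at 2.05, 2.78 and 4.14 CPM in knockout left lungs, against 5.19, 3.31 and 4.02 CPM in wild-type left lungs, and at 2.15, 2.98 and 4.92 CPM in knockout right lungs, against 7.17, 4.57 and 3.25 CPM in wild-type right lungs. The Ptprc groups overlapped on both sides. Its log2 difference over both sides was -0.53 (SE 0.30, adjusted p = 0.506), with the widest error of the 10 genes. It was -0.31 without knockout number 1, -0.88 without knockout number 3 and -0.26 without wild-type number 1. Leaving out single libraries moved it over -0.78 to -0.26 in left lungs and over -0.96 to -0.22 in right lungs.

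**Figure D2:**
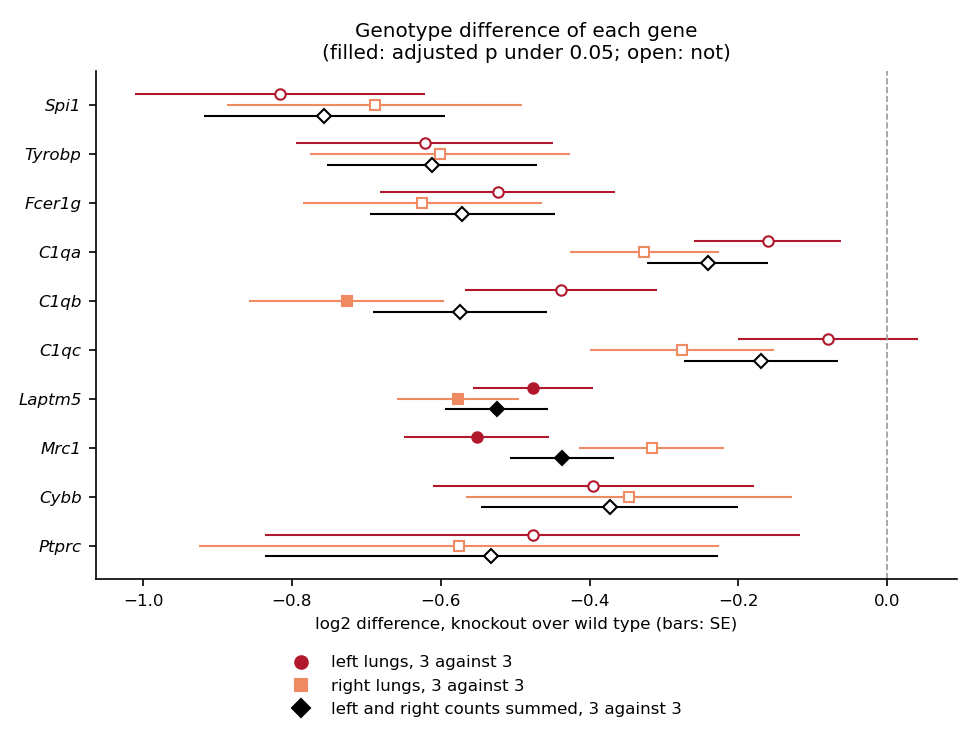
Log2 difference of each gene, knockout over wild type (x axis), in left lungs, right lungs and with both sides summed, with bars for the SE. All 30 values lie below 0, and the filled markers (adjusted p under 0.05) are those of Laptm5 in all 3 comparisons, Mrc1 in left lungs and summed, and C1qb in right lungs.

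Counted over libraries without a test, the knockout libraries lay wholly below the wild-type libraries for 6 of the 10 genes in left lungs (Spi1, Tyrobp, Fcer1g, C1qb, Laptm5 and Mrc1), where 8.26% of all genes did so. In right lungs 8 of the 10 genes did so, all but C1qc and Ptprc, against 9.71% of all genes. With all 6 knockout libraries set against all 6 wild-type libraries, 5 genes did so (Spi1, Tyrobp, Fcer1g, Laptm5 and Mrc1), against 2.65% of all genes. The same counts without knockout left 1 were chosen after seeing the data. Without that library 9 of the 10 genes, all but Ptprc, lay wholly below in left lungs, against 13.3% of all genes. Over both sides 7 then did so, with C1qa and C1qb added, against 3.37% of all genes. By the edgeR test, 2 genes were called lower in left lungs (Laptm5 and Mrc1), with 0.872% of all genes called lower, and 2 in right lungs (Laptm5 and C1qb), with 1.18% of all genes called lower. Without knockout left 1, Laptm5 (log2 difference -0.51, adjusted p = 0.0295) and Mrc1 (-0.64, adjusted p = 0.0105) were still the genes called in left lungs, with 0.608% of all genes called lower. Added up, the 10 genes came to 213.5, 170.9 and 195.3 CPM in knockout left and 185.6, 166.3 and 177.9 CPM in knockout right lungs, against 270.1, 264.2 and 251.0 CPM in wild-type left and 249.3, 245.6 and 233.6 CPM in wild-type right lungs. Every knockout sum was below every wild-type sum.

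The genes differed in how far libraries of the same group spread. For Cybb and C1qa the spread within groups was close to that of counting alone, with a chi-square per degree of freedom of 1.01 and 1.02 (8 degrees of freedom). It was 1.33 for Laptm5 and 1.75 for Tyrobp. The widest were Ptprc at 5.17 and Mrc1 at 5.01, and the value for Mrc1 includes the low knockout left 2. The other 4 genes lay between 2.54 and 3.97.

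The second question of the design was whether left and right lungs differ. No gene of the 10 was called between sides by edgeR, in knockout (0% of all genes called) or in wild type (0.0105% of all genes called). At an unadjusted p under 0.05 there were 2 of the 10 in knockout, C1qb and C1qc, where 358 of all 9519 genes had one, and 0 in wild type, where 249 of all genes had one. DESeq2 and limma-voom also called 0 in each genotype. In knockout lungs C1qb differed by 0.32 on the log2 scale, left over right (SE 0.13, adjusted p = 1), and C1qc by 0.33 (SE 0.12, adjusted p = 1). In wild-type lungs C1qb stood at 0.03 (SE 0.13) and C1qc at 0.14 (SE 0.12). Without knockout left 1, C1qb differed by 0.18 (SE 0.13) and C1qc by 0.22 (SE 0.13) in knockout lungs, with an adjusted p of 0.981 for each. None of the 10 then had an unadjusted p under 0.05 (432 of 9701 genes did), and 0 were called, with 0.0103% of all genes called. C1qa, C1qb, C1qc, Tyrobp, Fcer1g and Laptm5 were higher on the left in 3 of 3 knockout pairs of the same number, and Ptprc in 0 of 3. Over the 10 genes, 9, 7 and 8 were higher on the left in the 3 knockout pairs and 8, 6 and 8 in the 3 wild-type pairs. The median log2 difference over the 10 genes, left over right, was 0.13 in each genotype, against 0.00 over all genes, and 0.08 in knockout without knockout left 1. The list of other macrophage and myeloid genes (32 tested) had a median of 0.12 in knockout, with 13 negative. In wild type its median was 0.01, with 14 negative. The platelet and erythroid marker lists stood further towards the left than the 10 genes. The 8 platelet genes had a median of 0.37 in knockout and 0.54 in wild type, left over right, and 0 of 8 were negative in either. The 11 erythroid genes had a median of 0.22 in knockout, with 1 negative, and 0.43 in wild type, with 0 negative. No platelet or erythroid gene was called between sides by edgeR. An unadjusted p under 0.05 was found for 0 of each list in knockout and for 3 platelet and 2 erythroid genes in wild type. DESeq2 called 1 erythroid gene, Hbb-y, higher on the left in wild type. Other blood cell lists did not share this direction. The neutrophil list (4 tested) had a median of -0.87 in knockout, with 4 negative, and -0.18 in wild type, with 3 negative. The mast cell list (4 tested) stood at 0.001 in knockout and -0.32 in wild type, and the lymphoid list (1 tested) at 0.20 and -0.11. The part of these lists in the side differences of the macrophage genes was not tested. With each pair as a block, 0 of the 10 were called in either genotype, with 0.452% of all genes called in knockout and 0.662% in wild type, and the lowest adjusted p was 0.173 (C1qc) in knockout and 0.525 (Mrc1) in wild type.

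**Figure D3:**
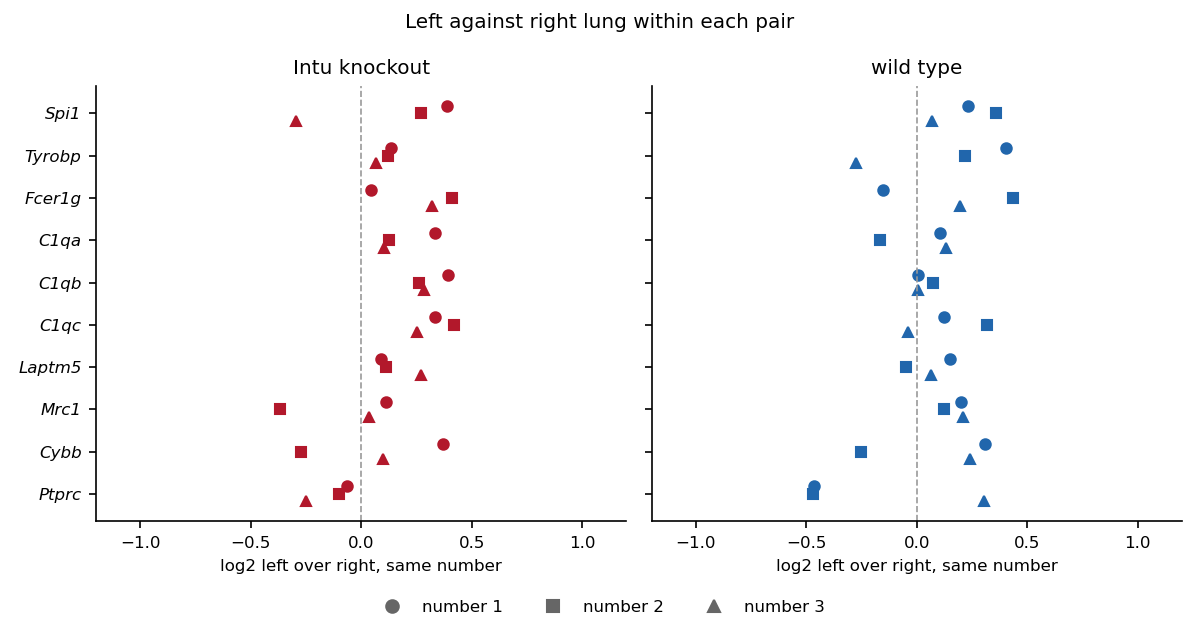
Log2 ratio of the left to the right library of the same number (x axes) for each gene, in Intu knockout and in wild-type lungs, with a marker shape for each number. The 3 knockout points of each C1q gene lie right of 0, and those of Ptprc lie left of 0, while no gene was called between sides.

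Whether the genotype difference is another on the left than on the right was tested as an interaction, and 0 of the 10 genes were called, as were 0% of all genes. No gene of the 10 had an unadjusted p under 0.05 in edgeR, against 124 of all 9519 genes, and DESeq2 and limma-voom called 0. The interaction was farthest from 0 for C1qb at 0.29 (SE 0.18, adjusted p = 1), whose knockout difference was the more negative in right lungs. Mrc1 stood at -0.23 (SE 0.14, adjusted p = 1), with the more negative difference in left lungs. Without knockout left 1, C1qb stood at 0.16 (SE 0.17) and Mrc1 at -0.32 (SE 0.13), with an adjusted p of 1.00 for each. Mrc1 was then the only one of the 10 to have p under 0.05 before adjustment, against 147 of 9701 genes, and 0 of the 10 and 0% of all genes were called. The call of C1qb in right lungs alone and of Mrc1 in left lungs alone is therefore not shown to be a difference between sides. In the fit with pairs as a block, C1qb and Mrc1 had p under 0.05 before adjustment in edgeR, against 407 of all 9519 genes. Their adjusted p was 0.998 for each, with 0.021% of all genes called.

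Levels between genes were set side by side per kilobase of the deposited exon length. In knockout lungs C1qb was the highest at 19.2 ± 3.32 CPM per kilobase, followed by C1qa at 18.5 ± 1.61, Fcer1g at 14.9 ± 1.87, C1qc at 12.1 ± 2.13, Tyrobp at 9.55 ± 1.33, Mrc1 at 9.004 ± 1.01 and Laptm5 at 8.32 ± 0.764 CPM per kilobase (SD, n = 6). Each of these 7 overlapped in range with its neighbours in this order. Spi1 at 2.48 ± 0.557, Cybb at 0.536 ± 0.0785 and Ptprc at 0.173 ± 0.0621 CPM per kilobase (SD, n = 6) each lay apart from the gene above. In wild-type lungs C1qb led at 28.6 ± 2.76 CPM per kilobase, with Fcer1g at 22.2 ± 3.81 and C1qa at 21.9 ± 1.53 CPM per kilobase (SD, n = 6), and these 3 overlapped in turn. Tyrobp at 14.6 ± 2.01, C1qc at 13.7 ± 1.18, Mrc1 at 12.2 ± 0.897 and Laptm5 at 11.97 ± 0.459 CPM per kilobase followed, each overlapping its neighbours among these 4 (SD, n = 6). The highest wild-type library of Tyrobp, at 18.01 CPM per kilobase, was below the lowest of C1qa, at 19.7, and above the lowest of Fcer1g, at 17.3. Spi1 at 4.18 ± 0.474, Cybb at 0.694 ± 0.111 and Ptprc at 0.250 ± 0.0801 CPM per kilobase were again lowest and apart (SD, n = 6). C1qb, C1qa and Fcer1g were the 3 highest of the 10 genes per length in both genotypes, with C1qa and Fcer1g in exchanged places, and Ptprc was the lowest. The place of Ptprc below Cybb rests on the deposited exon lengths, 18313 and 5808 bases. In CPM the ranges of these genes overlapped in both genotypes. Ptprc was at 3.17 and Cybb at 3.11 CPM in knockout, and at 4.58 and 4.03 CPM in wild type (means, n = 6).

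Other genes of macrophages and of the leukocytes at large were compared from lists, over both sides summed. Of 65 other macrophage and myeloid genes, 44 were in the table and 37 were tested, and 1 was called lower (2.70%) and 0 higher, against 1.04% of all genes called lower. It was Fcrls, an Fc receptor-like gene of macrophages and microglia, at 14.3 ± 2.05 CPM in knockout and 22.3 ± 2.92 CPM in wild-type libraries (SD, n = 6), a log2 difference of -0.64 (SE 0.11, adjusted p = 0.0318). Of the 37 differences 30 were negative, with a median of -0.37. In the fit of 12 separate libraries 6 of 32 were called lower (18.8%) and 0 higher, against 3.62% of all genes called lower. These were Fcrls, the Fc receptor Fcgr1 (-0.48, adjusted p = 0.0241), the receptor for complement fragment C3a, C3ar1 (-0.52, adjusted p = 0.0173), the purine receptor P2ry12 (-0.70, adjusted p = 0.0300), the Toll-like receptor Tlr13 (-0.58, adjusted p = 0.0362) and the lectin Cd33 (-0.57, adjusted p = 0.0371). The 4 genes of this list with the highest level per length were Lyve1, Fcrls, Lyz2 and Ctss. Lyve1, a hyaluronan receptor of lymphatic endothelium as well as of some macrophages, was not called and stood on the other side of 0, at 75.9 ± 17.0 CPM in knockout and 65.3 ± 6.11 CPM in wild type (SD, n = 6), a log2 difference of 0.22 (SE 0.15, adjusted p = 0.597). The lysozyme gene Lyz2 (-0.57, adjusted p = 0.477) and the protease gene Ctss (-0.38, adjusted p = 0.383) were not called.

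Of 30 pan-leukocyte genes, 16 were in the table and tested, and 1 was called lower (6.25%) and 0 higher, against 1.04% of all genes called lower. It was Coro1a, an actin regulator of leukocytes, at 15.6 ± 1.85 CPM in knockout and 23.8 ± 2.90 CPM in wild-type libraries (SD, n = 6). Coro1a fell by 0.61 on the log2 scale over both sides (SE 0.11, adjusted p = 0.0407), by 0.65 in left lungs (adjusted p = 0.0244) and by 0.58 in right lungs (adjusted p = 0.0469). Of the 16 differences 13 were negative, with a median of -0.50. In the fit of 12 separate libraries 5 of 14 were called lower (35.7%), against 3.62% of all genes, namely Coro1a, the actin regulator Was (-0.74), the adaptor Sash3 (-0.46), the tumour necrosis factor receptor Tnfrsf1b (-0.53) and the integrin Itgal (-0.73). Arhgdib (-0.34, adjusted p = 0.514), Cd44 (0.05, adjusted p = 0.951) and Ptpn6 (-0.25, adjusted p = 0.452), which with Coro1a were the most abundant per length, were not called.

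Of 10 genes for factors that feed or attract macrophages, 4 were in the table and tested. Of these 2 were called lower by edgeR (50.0%), against 1.04% of all genes. The chemokine gene Cxcl12 fell to 158.2 ± 8.69 CPM in knockout libraries, against 243.0 ± 14.1 CPM in wild-type libraries (SD, n = 6), a log2 difference of -0.62 (SE 0.04, adjusted p = 0.000437). Tgfb1, which encodes a growth factor, was at 84.5 ± 3.01 CPM in knockout and 102.1 ± 9.87 CPM in wild type (SD, n = 6), a log2 difference of -0.27 (SE 0.05, adjusted p = 0.0479). Its libraries overlapped, at 81.3 to 89.3 CPM in knockout and 83.7 to 111.0 CPM in wild type. By edgeR Tgfb1 was not called in left lungs (adjusted p = 0.0813) or in right lungs (adjusted p = 0.255). Csf1, the growth factor of macrophages, was at 51.0 ± 4.11 CPM in knockout and 61.9 ± 1.94 CPM in wild type (SD, n = 6). Its log2 difference of -0.28 (SE 0.07, adjusted p = 0.104) was not called by edgeR over both sides summed. It was called in the fit of 12 separate libraries (adjusted p = 0.00998). Over both sides summed, limma-voom called Cxcl12 alone of the 4 genes, and DESeq2 called Cxcl12, Tgfb1 and Csf1. The chemokine gene Ccl21a stood at -0.74 (SE 0.31, adjusted p = 0.346). Of 11 tested complement genes other than C1q, 0 were called by edgeR, DESeq2 or limma-voom. In edgeR 3 of them had an unadjusted p under 0.05, against 1350 of all 10203 genes. Of these 11 differences 5 were negative, with a median of 0.03.

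Genes that mark other cells of the lung were summed and counted in the same way. The platelet and megakaryocyte list also moved with genotype. Of its 15 genes 8 were in the table and tested, and all 8 differences were negative with a median of -1.07. Against 1.04% of all genes, 3 of the list were called lower (37.5%), Ppbp (-1.55, adjusted p = 0.0462), Tubb1 (-1.10, adjusted p = 0.0340) and Pf4 (-0.78, adjusted p = 0.0397). Its summed level was 17.6 to 29.4 CPM in knockout and 30.7 to 68.8 CPM in wild-type libraries, and the part of these cells in the differences of the macrophage genes was not tested. In the fit of 12 separate libraries Gp9 (-1.14, adjusted p = 0.0287) and Gp6 (-1.33, adjusted p = 0.0487) were called as well. That made 5 of 8 called lower (62.5%), against 3.62% of all genes.

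Of 11 erythroid, 11 endothelial and 5 lung epithelial and mesenchymal genes tested, 0 were called in the summed comparison by edgeR, DESeq2 or limma-voom. In edgeR 0, 3 and 2 of them had an unadjusted p under 0.05, against 1350 of all 10203 genes. The medians of these 3 lists were 0.04, 0.03 and 0.15. In the fit of 12 separate libraries Sox18 (0.21, adjusted p = 0.0257) of the endothelial genes and Elf3 (0.54, adjusted p = 0.0329) of the lung genes were called higher. Summed endothelial levels were 1245 to 1680 CPM in knockout and 1286 to 1397 CPM in wild-type libraries, and those of the lung genes 804.2 to 853.2 CPM in knockout and 733.6 to 803.3 CPM in wild type. The lung sums thus lay apart between the genotypes, with knockout just above wild type, and the part of this in the results was not tested. Erythroid genes summed to 2528 to 3903 CPM in knockout and 2238 to 3565 CPM in wild type. Of the mast cell and basophil list (4 tested), the neutrophil list (4 tested) and the lymphoid list (2 tested), edgeR called 0 in the summed comparison, with an unadjusted p under 0.05 for 1, 1 and 0 of them. The neutrophil list had a median of -0.93, with 3 of 4 differences negative, S100a8 (-1.56, adjusted p = 0.386), S100a9 (-1.66, adjusted p = 0.410) and Prtn3 (-0.29, adjusted p = 0.579), and its part in the differences of the macrophage genes was not tested. The mast cell list had a median of -0.03, with 2 of 4 negative, and the lymphoid list one of 0.13, with 1 of 2 negative. The mast cell gene Fcer1a was at 0 in all 12 libraries. Mast cell genes summed to 77.4 to 105.2 CPM in knockout and 98.2 to 111.5 CPM in wild type, mostly Kit and Gata2. Neutrophil genes summed to 10.1 to 12.9 CPM in knockout and 8.98 to 17.1 CPM in wild type, and lymphoid genes to 11.3 to 16.9 CPM in knockout and 12.8 to 16.0 CPM in wild type. Of the neutrophil genes, the receptor gene Csf3r was called higher in knockout by DESeq2 and in the fit of 12 separate libraries (0.70, adjusted p = 0.00459).

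**Figure D4:**
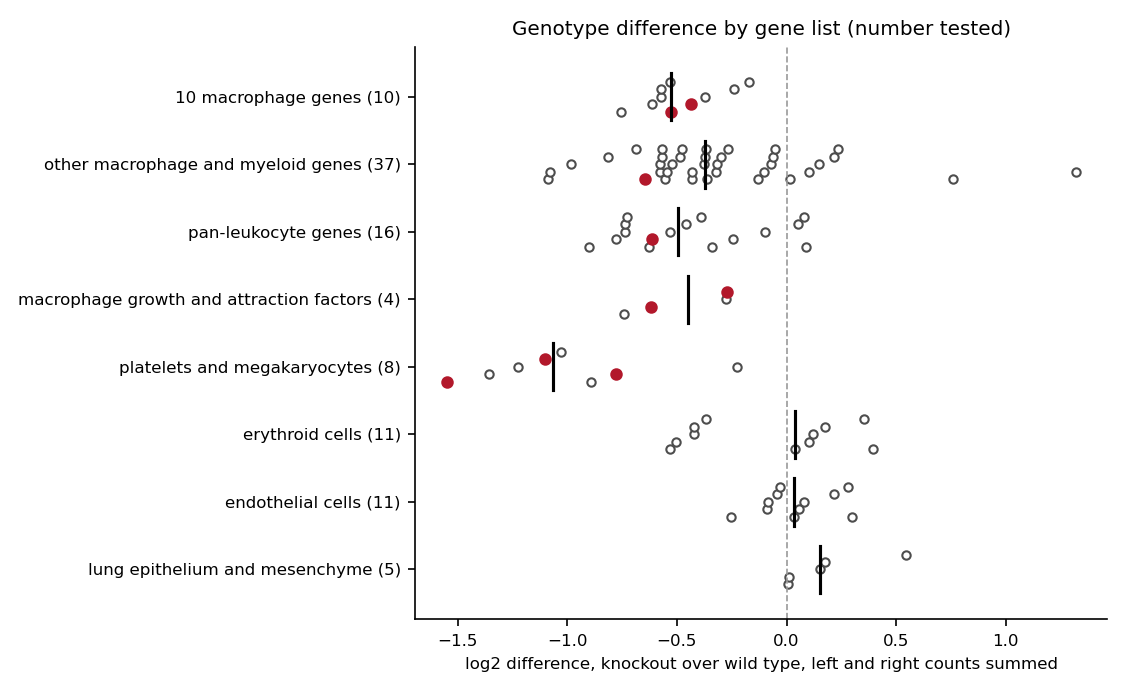
Log2 difference, knockout over wild type with both sides summed (x axis), of each tested gene of 8 lists (rows, number tested in brackets), with a bar at each list's median and filled points for genes with an adjusted p under 0.05. The medians are -0.53 for the 10 macrophage genes, -0.37 for other macrophage and myeloid genes, -0.50 for pan-leukocyte genes and -1.07 for platelet genes, and 0.04, 0.03 and 0.15 for the erythroid, endothelial and lung rows.

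Within groups, the 10 genes did not all vary together. The correlation of a gene with the mean of the other 9, over 12 libraries after the group means were subtracted, was highest for C1qa (0.679) and C1qb (0.665) and lowest for Cybb (0.208) and Ptprc (-0.0567). These libraries include left and right lungs of the same number, so they are not 12 independent points. Among all other genes, the 6 whose levels were most like the mean of the 10 within groups were Cldn12 (r = 0.961), AU022252 (0.947), Gm12919 (0.935), 2410004B18Rik (0.934), Zmynd19 (0.931) and Zan (0.923), each over 12 libraries, and none is on a list used here. As the top of a ranking of all genes that passed the filter, these r are selected to be high. The 32 genes of the macrophage and myeloid list had a median of 0.426 by this measure, against 0.0149 over all genes, with the oxidase subunit gene Ncf1 highest at 0.872. With the group means kept, which lets the genotype difference count, Coro1a was the most like the 10 genes (r = 0.979), followed by Pdgfc (0.962), each over 12 libraries. The 6 genes most alike within groups then ranged from r = -0.285 (Gm12919) to 0.764 (2410004B18Rik), with AU022252 at 0.444.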

How the data were processed

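The authors deposited whole-number counts per gene that carry no normalisation. The submitters' processing notes name FastQC, HISAT2, featureCounts and the build GRCm38. Neither strand settings nor tool versions are given in the sources used here. As analysed, the table ends within chromosome 8, and its 1 incomplete row was left out. Symbols were matched by ID for 99.5% of genes.

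Counts were filtered with filterByExpr (minimum count 10, minimum total 15), scaled by TMM (factors 0.992 to 1.01) and tested with edgeR 4.0.16 in R 4.3.3 (glmQLFit, glmQLFTest), with Benjamini-Hochberg adjustment over all genes tested. The fit of 12 libraries and 4 groups (8 residual degrees of freedom) tested 9519 genes. The comparison over both sides added up the counts of the left and the right library of each number (4 residual degrees of freedom, 10203 genes). All 10 macrophage genes passed the filters. Alternatives used DESeq2 1.42.0, limma 3.58.1 and other settings, and the procedure was tested on simulated counts. Correlations used log2 CPM with a prior count of 2.

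Deviations from the group means correlated at 0.253 to 0.486 between left and right libraries of the same number and genotype (6 pairs), and at -0.393 to -0.00284 between other numbers of that genotype. Subtracting the group mean makes the deviations of a group cancel out. Positive values for the same number therefore force negative ones on average for other numbers, which are no separate evidence. The numbers were taken to pair the sides within a genotype, which rests on the data alone and not on the labels. Across genotypes, libraries of the same side and number correlated at -0.103 to -0.0423.

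The genes and lists were chosen with earlier results of these data known. Named were all 10 genes, list genes called in the summed comparison or the fit of 12 libraries, the 4 most abundant genes per length of the 2 leukocyte lists, the 6 genes most alike, and Gli1, Intu and Xist. The factors Csf1 and Ccl21a, S100a8, S100a9, Prtn3, the mast cell genes, Hbb-y, Ncf1 and Pdgfc were named after their values were seen.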

Additional observations from a re-analysis of the deposited data

How the results depend on the processing

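The main count of genes called lower, 2 of 10 in each of the left, right and summed comparisons, depended on the test. With no filter on low counts it was 6 in left lungs, 5 in right lungs and 5 over both sides. Over both sides it was also 6 with DESeq2. It was 6 in the mean contrast of 12 libraries (3.62% of all genes called lower). With the replicate block of left and right pairs as a random effect it was 6 (2.48% of all genes). The number of all genes called changed between fits as well, as given below, so these counts alone are no result about the 10 genes. In left lungs the count of genes called was 1 with only those 2 groups in the edgeR fit. The same setting in right lungs added Mrc1 (adjusted p = 0.046). DESeq2 added Spi1 in left lungs (adjusted p = 0.0146) and Fcer1g in right lungs (adjusted p = 0.0247). A replicate block across genotypes, whose numbers pair no samples, gave 0 in left lungs and 1 in right lungs (C1qb). Leaving out each library in turn gave 1 to 2 in left lungs and 1 to 3 in right lungs, and leaving out each number gave 0 to 3 over both sides. The counts between sides and for the interaction were 0 in every fit, the replicate block of pairs included, and the counts of non-overlapping genes (6, 8 and 5) were the same with DESeq2 size factors. Without knockout left 1, an alternative chosen after seeing the data, they were 9 in left lungs and 7 over both sides. Over all genes and both directions, 112, 144 and 141 were called in left lungs, right lungs and over both sides, and the alternatives gave 24 to 510, 68 to 595 and 29 to 543. Between sides the range was 1 to 63 in wild type and 0 to 43 in knockout.

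No alternative turned the direction of a knockout difference of the 10 genes, and these log2 differences lay between -0.97 and -0.017 over all fits. The cause of changed calls was not tested, other than that fits without a library or without other groups hold fewer samples. Uncalled differences between sides changed sign when 1 library was left out. In wild type, left over right, Tyrobp ranged over -0.000296 to 0.26, C1qa -0.0439 to 0.0806, C1qb -0.0538 to 0.12, Cybb -0.0329 to 0.28 and Ptprc -0.49 to 0.0930. In knockout Spi1 ranged over -0.0939 to 0.33, Tyrobp -0.0140 to 0.22, Cybb -0.0924 to 0.16, Ptprc -0.47 to 0.22 and Mrc1 -0.14 to 0.0798. For the interaction the ranges were -0.32 to 0.10 for Spi1, -0.15 to 0.11 for Tyrobp, -0.21 to 0.11 for Cybb, -0.26 to 0.48 for Ptprc and -0.0762 to 0.23 for Fcer1g. The correlation of Gm12919 with the 10 genes was -0.285 with the group means kept. Cybb and Ptprc, with at most 53 and 75 counts per library, had the widest errors over both sides (SE 0.17 and 0.30).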
